A study of Homo sapiens with 5 samples.

Results

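The genes described here are 46 human genes of DNA replication and mitosis, taken by name from a fixed list, out of 20044 genes with a named probe on the array. That list was chosen with earlier results of these data known. The list was read on 68 probes, of which 65 were above background on at least 1 array, where a detection p under 0.01 counts as above background. A tested gene needed such a probe, which 45 of the 46 had. Each of these 45 was above background on all 5 arrays, so none entered the test through 1 group alone. The remaining gene, CCNE2 (cyclin E2, a partner of CDK2 at the start of S phase), had 1 probe, with detection p-values of 0.305 to 0.932 in the resistant lines and 0.113 in NCI-N87, and was not tested.

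A dividing cell copies its DNA once, in S phase, and separates the copies in mitosis. Before S phase CDC6 and CDT1 load the MCM helicase onto origins of replication, and geminin (GMNN) later binds CDT1 so that no origin is loaded again in the same cycle. E2F factors drive the genes of DNA synthesis, whereas FOXM1 and cyclin-dependent kinases drive those of mitosis, in which the Aurora kinases, the spindle checkpoint and the anaphase-promoting complex order the separation of chromosomes. Tumours and cultured cancer lines, gastric ones included, usually express these genes, since their cells divide.

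RNA was measured in 5 gastric cancer cell lines with Illumina BeadChips, 1 array per line. The resistant group holds 4 lines, named N87-TR1, N87-TR2 and N87-TR3 as well as N87-TR4, labelled resistant to trastuzumab, a therapeutic antibody that binds the receptor ERBB2. The line they are set against is NCI-N87, labelled sensitive, a gastric carcinoma line known for its amplified ERBB2 gene. All lines grew in RPMI medium with serum, were harvested before confluence, and carry no label of a drug in the medium or of an engineered allele. The labels do not say how the resistant lines were obtained or whether their cultures were separate, so a p-value reflects no more than the variation among these arrays, which could be technical. That variation comes from the 4 resistant arrays, and the lone NCI-N87 array is assumed to vary like them. All 5 arrays carry 1 chip number in the labels, so no chip effect could be fitted.

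Across genes, which are not independent replicates, pairs of resistant lines had r = 0.943 to 0.979, and a resistant line paired with NCI-N87 had r = 0.751 to 0.764. The number of genes above background was 10248 to 11069 in the resistant lines and 10381 in NCI-N87. ERBB2 averaged 10.45 ± 0.23 in the resistant lines (SD, n = 4) and was 15.90 in NCI-N87, in log2 normalised signal, a difference of -5.45 ± 0.33 (SE, adjusted p = 8.54e-05). Of 7 epithelial markers, 3 or 4 were above background in each resistant line and all 7 in NCI-N87. KRT19, CLDN4 and CLDN7 were above background in NCI-N87 alone. The log2 differences of the others, resistant minus sensitive, were -4.30 for EPCAM, -4.53 for CDH1, -6.10 for KRT8 and 0.34 for KRT18. Of 8 gastric markers, 1 or 2 were above background in each resistant line and 2 in NCI-N87. Leukocyte markers numbered 2 of 5 on every array, fibroblast markers 1 of 6 in N87-TR1 and 0 elsewhere, and endothelial markers 0 of 4 throughout. Their part in the results below was not tested.

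Most replication and mitosis genes were close to their NCI-N87 level in the resistant lines. Of the 45 tested, 5 rose, 2 fell and 38 did not pass the test, which is 15.6% called, against 23.1% of all 12478 genes tested. Among all genes 12.5% were called higher and 10.5% lower. GMNN, CDC25A, AURKB, CDT1 and E2F2 rose, and CDC6 and UBE2C fell. At an unadjusted p under 0.05 the list held 11 genes, among 4454 of all genes. The median log2 difference, resistant minus sensitive, was 0.26 over the list and 0.07 over all genes, and the median size of a difference regardless of sign was 0.43 over the list and 0.66 over all genes. Only 8 of the 45 differed at least 2-fold, 6 of them higher and 2 lower, which is 17.8% against 33.6% of all genes. All 45 were above background on all 5 arrays, as were 8732 of the 12478 genes. The shares of all genes, here and below, also cover genes above background on fewer arrays. They are therefore not matched to the list in detection. In these bulk samples, a different share of cycling cells and a different amount of RNA per cell cannot be told apart.

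The groups did not overlap for 26 of the 45 genes, with 20 genes above NCI-N87 in all 4 resistant lines and 6 below it in all 4. That is 57.8% of the list, against 68.6% of all genes, where 36.9% lay above and 31.7% below. By size, 27 differences were under 0.5 on the log2 scale, 10 lay between 0.5 and 1, and 8 were larger. The count of 7 called genes depended on the lines included. It was 2 without N87-TR2 (CDC25A and GMNN), 3 without N87-TR4 (those and AURKB), 7 without N87-TR1, where CDC25C replaced E2F2, and 11 without N87-TR3, which kept all 7 and added CDC25C, PTTG1, RRM1 and TOP2A.

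**Figure D1:**
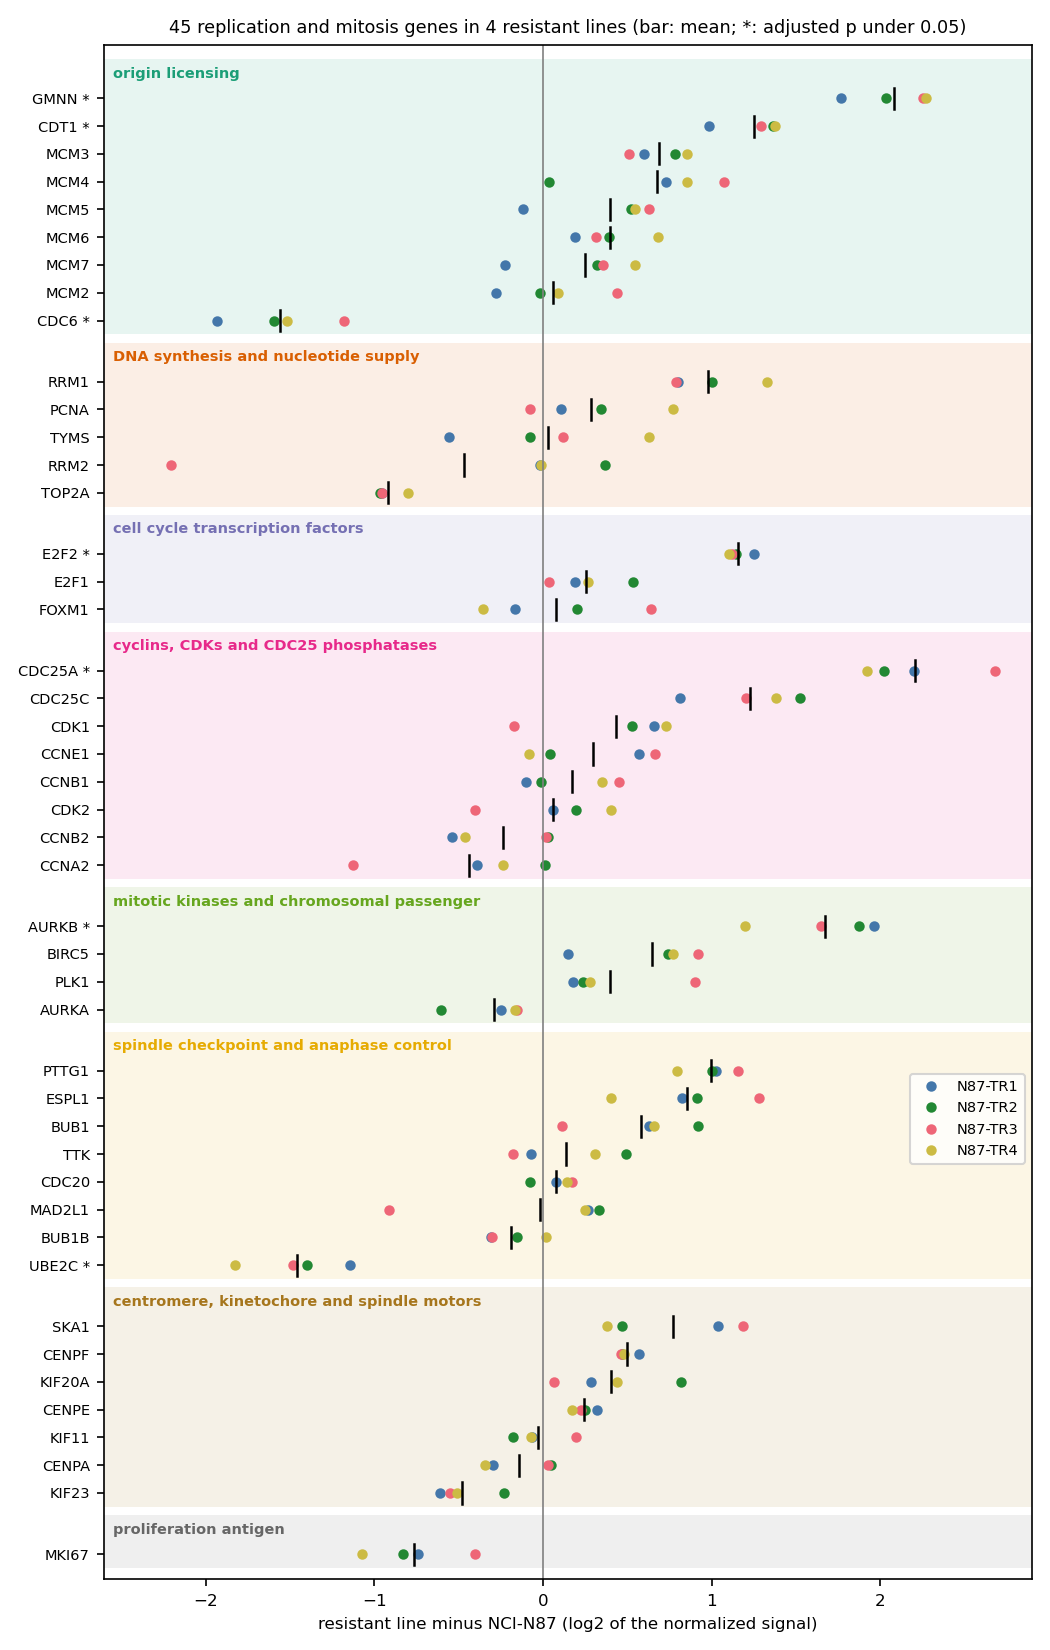
Each row is 1 of the 45 tested genes, grouped by role, and each point is the log2 difference of 1 resistant line from NCI-N87, which is the line at 0. Most points lie within 1 log2 unit of 0, while GMNN and CDC25A lie near 2 in all 4 lines and RRM2 in N87-TR3 lies far from the other 3 lines.

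Among the 9 genes that prepare origins for replication, 2 rose and 1 fell, where 23.1% of all genes were called. Of these 3, GMNN alone was still called without N87-TR2 or without N87-TR4. Geminin, the inhibitor of CDT1, lies at chr6:24774937-24786099 (GRCh38.p14, RefSeq). GMNN read 10.36, 10.63, 10.85 and 10.87 in N87-TR1 to N87-TR4, against 8.60 in NCI-N87. All 4 resistant lines lay far above NCI-N87 and close to one another. The difference was 2.08 ± 0.33 on the log2 scale, a 4.24-fold rise (adjusted p = 0.00514).

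CDT1, the loading factor that geminin binds, lies at chr16:88803789-88809258. CDT1 read 11.89, 12.27, 12.19 and 12.28 in N87-TR1 to N87-TR4, against 10.90 in NCI-N87. The resistant lines again lay together above NCI-N87, with N87-TR1 the lowest of them. The difference was 1.25 ± 0.31, a 2.39-fold rise (adjusted p = 0.0284). CDT1 did not pass without N87-TR2 (adjusted p = 0.072) or N87-TR4 (0.0751), nor after cyclic loess (0.0569) or scaling to the 75th percentile (0.0562).

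CDC6, the ATPase that recruits CDT1 and the helicase to origins, went the other way and lies at chr17:40287879-40304657. CDC6 read 7.01, 7.35, 7.76 and 7.43 in N87-TR1 to N87-TR4, against 8.94 in NCI-N87. Every resistant line was more than 1 log2 unit below NCI-N87. The difference was -1.56 ± 0.36, so CDC6 was 2.94-fold lower (adjusted p = 0.0226). It did not pass without N87-TR2 (adjusted p = 0.0549) or N87-TR4 (0.0557).

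The 6 subunits of the MCM helicase, MCM2 to MCM7, did not pass the test. Their log2 differences were 0.06 for MCM2, 0.69 for MCM3, 0.67 for MCM4, 0.40 for MCM5 and MCM6, and 0.25 for MCM7, of which another probe gave -0.25. MCM3 and MCM6 lay above NCI-N87 in all 4 resistant lines, as did MCM4, whereas MCM2, MCM5 and MCM7 overlapped it. By a second MCM4 probe N87-TR2 was not above, at 8.97 against 8.99 in NCI-N87. MCM4 varied most among them, at 12.76, 12.07, 13.10 and 12.88 in N87-TR1 to N87-TR4 and 12.03 in NCI-N87 (difference 0.67 ± 0.43, adjusted p = 0.316).

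The promoters of the called licensing genes and of CDC25A, the largest rise of the list, are shown so that the letters of genes that rose can be set beside those of a gene that fell. Each sequence is the 250 bases before the gene's start in RefSeq, GRCh38.p14, read 5′ to 3′ on the gene's strand. Capitals mark E2F elements (searched as TTTCCCG, along with TTTGGCG, along with TTTCGCG, along with TTTGCCG) and CCAAT boxes, on either strand. The positions are chr16:88803539-88803788 on the plus strand for CDT1, chr6:24774687-24774936 on the plus strand for GMNN, chr17:40287629-40287878 on the plus strand for CDC6, and chr3:48188418-48188667 on the minus strand for CDC25A.
CDT1: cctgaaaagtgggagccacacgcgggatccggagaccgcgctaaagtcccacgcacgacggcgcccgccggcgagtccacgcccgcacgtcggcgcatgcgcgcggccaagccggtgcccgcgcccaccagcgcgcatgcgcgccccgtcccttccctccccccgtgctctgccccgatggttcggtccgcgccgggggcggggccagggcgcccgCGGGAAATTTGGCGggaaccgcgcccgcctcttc
GMNN: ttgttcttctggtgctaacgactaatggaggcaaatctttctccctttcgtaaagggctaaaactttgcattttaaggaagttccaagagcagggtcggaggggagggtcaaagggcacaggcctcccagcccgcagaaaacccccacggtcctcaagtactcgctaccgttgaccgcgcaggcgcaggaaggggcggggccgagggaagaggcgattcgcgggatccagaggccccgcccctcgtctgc
CDC6: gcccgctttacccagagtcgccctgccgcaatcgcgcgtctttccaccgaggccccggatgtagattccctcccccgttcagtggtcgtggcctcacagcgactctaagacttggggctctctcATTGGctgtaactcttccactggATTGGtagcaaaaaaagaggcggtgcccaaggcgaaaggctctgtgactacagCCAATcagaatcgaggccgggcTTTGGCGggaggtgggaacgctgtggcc
CDC25A: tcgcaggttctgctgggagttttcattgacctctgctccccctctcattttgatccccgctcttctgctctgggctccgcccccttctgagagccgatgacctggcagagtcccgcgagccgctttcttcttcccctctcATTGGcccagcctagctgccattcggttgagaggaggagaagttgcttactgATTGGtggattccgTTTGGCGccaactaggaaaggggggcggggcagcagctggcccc
CDT1, which rose, held 2 E2F elements side by side and no CCAAT box. CDC6, which fell, held 1 E2F element and 3 CCAAT boxes. CDC25A, which rose, held 1 E2F element and 2 CCAAT boxes, and GMNN, which rose, held neither.

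Over the 37 members with a promoter in the table, 12 (32.4%) held an E2F element, against 9.24% of 15843 promoters of protein-coding genes and 7.35% of all 27305 promoters. A CCAAT box stood in 27 (73.0%), against 34.5% of protein-coding promoters. The cell cycle homology region (CHR, searched as TTTGAA or TTCGAA on both strands), an element of mitotic genes, stood in 13 (35.1%), against 11.9% of protein-coding promoters. No motif contains another, and matches that overlap were each counted. Of the 6 called genes with a promoter entry, 4 held an E2F element (CDT1, CDC6, E2F2 and CDC25A), 3 a CCAAT box and 0 a CHR. These matches describe letters in a window and are not measured binding sites.

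No gene of DNA synthesis and nucleotide supply passed the test, with a median difference of 0.03 over 5 genes. TOP2A, the topoisomerase that untangles DNA for replication and chromosome separation, read 12.67, 12.66, 12.67 and 12.82 in N87-TR1 to N87-TR4, against 13.62 in NCI-N87. The resistant lines were nearly identical and all lay below NCI-N87 (difference -0.92 ± 0.28, adjusted p = 0.0597). Over 15 alternative settings the TOP2A difference ran from -1.05 to -0.78, and whether it passed depended on the setting. RRM1, the large subunit of ribonucleotide reductase, lay above NCI-N87 in all 4 lines (0.98 ± 0.34, adjusted p = 0.0809). PCNA, the sliding clamp of DNA polymerases, overlapped NCI-N87 (0.29, adjusted p = 0.645).

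RRM2, the small subunit of the same reductase, varied most of the 45 genes among the resistant lines. RRM2 read 10.47, 10.86, 8.29 and 10.48 in N87-TR1 to N87-TR4, against 10.49 in NCI-N87. N87-TR3 was low and the other lines lay close to NCI-N87. The resistant lines as a group did not differ from NCI-N87 beyond their spread (-0.47 ± 0.91, adjusted p = 0.762, and 0.11 without N87-TR3). TYMS, which makes the thymidine nucleotide, read 10.98, 11.46, 11.66 and 12.17 in N87-TR1 to N87-TR4, against 11.54 in NCI-N87. The NCI-N87 value lay among the resistant values (difference 0.03 ± 0.46, adjusted p = 0.974).

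Among the transcription factors, E2F2, an activator of S-phase genes at chr1:23505212-23531233, rose. E2F2 read 12.34, 12.23, 12.21 and 12.19 in N87-TR1 to N87-TR4, against 11.09 in NCI-N87. The resistant lines spanned less than their distance from NCI-N87 by far, with an SD of 0.06 (n = 4). The difference was 1.16 ± 0.28, a 2.23-fold rise (adjusted p = 0.0275). E2F2 did not pass without N87-TR1 (adjusted p = 0.0604), N87-TR2 (0.0697) or N87-TR4 (0.0695), nor after cyclic loess (0.0551) or scaling to the 75th percentile (0.0562). Its relative E2F1 lay above NCI-N87 in all 4 lines by a small amount (0.26, adjusted p = 0.614). FOXM1, the factor of mitotic genes, overlapped NCI-N87 (0.08, adjusted p = 0.918).

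CDC25A, the phosphatase that removes inhibitory phosphates from CDK2 and CDK1, had the largest rise of the list and lies at chr3:48157146-48188417. CDC25A read 10.86, 10.68, 11.34 and 10.58 in N87-TR1 to N87-TR4, against 8.66 in NCI-N87. All 4 resistant lines stood well above NCI-N87, N87-TR3 the highest. The difference was 2.21 ± 0.37, a 4.62-fold rise (adjusted p = 0.00685). A second probe was above background in N87-TR1, N87-TR2 and N87-TR4 and not in N87-TR3 or NCI-N87, so it gives no measured fold.

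CDC25C, the related phosphatase of mitotic entry, was just short of the threshold. By its brightest probe CDC25C read 9.60, 10.31, 9.99 and 10.17 in N87-TR1 to N87-TR4, against 8.79 in NCI-N87. Each resistant line was higher than NCI-N87 (1.23 ± 0.36, adjusted p = 0.0505), and the adjusted p was 0.0419 without N87-TR1, 0.103 without N87-TR2, 0.0449 without N87-TR3 and 0.112 without N87-TR4. Its other 2 detected probes differed by 0.44 and 0.67, and the mean of its probes by 0.78 (adjusted p = 0.276). By the CDC25C probe that differed by 0.44, N87-TR3 was not higher, at 8.14 against 8.77 in NCI-N87. CCNA2, cyclin A2, which drives S phase and entry into mitosis, read 11.06, 11.47, 10.33 and 11.22 in N87-TR1 to N87-TR4, against 11.46 in NCI-N87. N87-TR3 was again the lowest, and the group did not differ beyond its spread (-0.44 ± 0.46, adjusted p = 0.545).

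The other cyclins and kinases stayed within 0.5 of NCI-N87 on the log2 scale. The differences were 0.30 for CCNE1 (cyclin E1, of the G1 to S transition), 0.17 for CCNB1 and -0.24 for CCNB2 (the mitotic B cyclins), 0.43 for CDK1 (the mitotic kinase) and 0.06 for CDK2 (the S-phase kinase), of which a second probe gave -0.44. All of these overlapped NCI-N87 by their brightest probe. By the second CDK2 probe only N87-TR3, where it was not above background, lay below NCI-N87.

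Among the mitotic kinases, AURKB, the catalytic subunit of the chromosomal passenger complex, rose and lies at chr17:8204731-8210575. AURKB read 11.15, 11.06, 10.83 and 10.38 in N87-TR1 to N87-TR4, against 9.18 in NCI-N87. Even the lowest line, N87-TR4, was more than 1 log2 unit above NCI-N87. The difference was 1.67 ± 0.38, a 3.18-fold rise (adjusted p = 0.0207, or 0.0503 without N87-TR2). Its partner BIRC5 (survivin) lay above NCI-N87 in all 4 lines without passing (0.64 by the brightest probe, and 1.16 by a second probe). PLK1, a kinase of mitotic entry and spindle assembly, lay above it by 0.40 (adjusted p = 0.497). AURKA, the spindle pole kinase, lay below NCI-N87 in all 4 lines (-0.29, adjusted p = 0.564).

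In anaphase control, UBE2C, the ubiquitin-conjugating enzyme that works with the anaphase-promoting complex, fell and lies at chr20:45812644-45816952. UBE2C read 11.02, 10.77, 10.68 and 10.34 in N87-TR1 to N87-TR4, against 12.16 in NCI-N87. All 4 resistant lines lay more than 1 log2 unit below NCI-N87. The difference was -1.46 ± 0.35, so UBE2C was 2.75-fold lower (adjusted p = 0.0248, or 0.056 without N87-TR2 and 0.0544 without N87-TR4). A second UBE2C probe was above background in NCI-N87 and in none of the resistant lines.

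By its brightest probe PTTG1, securin, the inhibitor of separase, read 13.19, 13.16, 13.32 and 12.95 in N87-TR1 to N87-TR4, against 12.16 in NCI-N87. It was higher in every resistant line without passing (1.00 ± 0.30, adjusted p = 0.055). Over 15 alternative settings the PTTG1 difference ran from 0.80 to 1.07, and whether it passed depended on the setting. A second PTTG1 probe, above background on all 5 arrays, differed by 0.73. By that probe N87-TR3 was not higher, at 10.81 against 10.87 in NCI-N87. ESPL1, separase itself, also lay above NCI-N87 in all 4 lines (0.85, adjusted p = 0.164). CDC20, which activates the anaphase-promoting complex, overlapped NCI-N87 (0.08).

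The spindle checkpoint kinases BUB1 (0.58), BUB1B (-0.19) and TTK (0.14) did not pass. BUB1 lay above NCI-N87 in all 4 resistant lines, and BUB1B and TTK overlapped it. MAD2L1, the checkpoint protein that holds CDC20 inactive, read 11.45, 11.52, 10.27 and 11.44 in N87-TR1 to N87-TR4, against 11.18 in NCI-N87. N87-TR3 was the low line, and the group did not differ beyond its spread (-0.01 ± 0.52, adjusted p = 0.989, and 0.29 without N87-TR3).

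**Figure D2:**
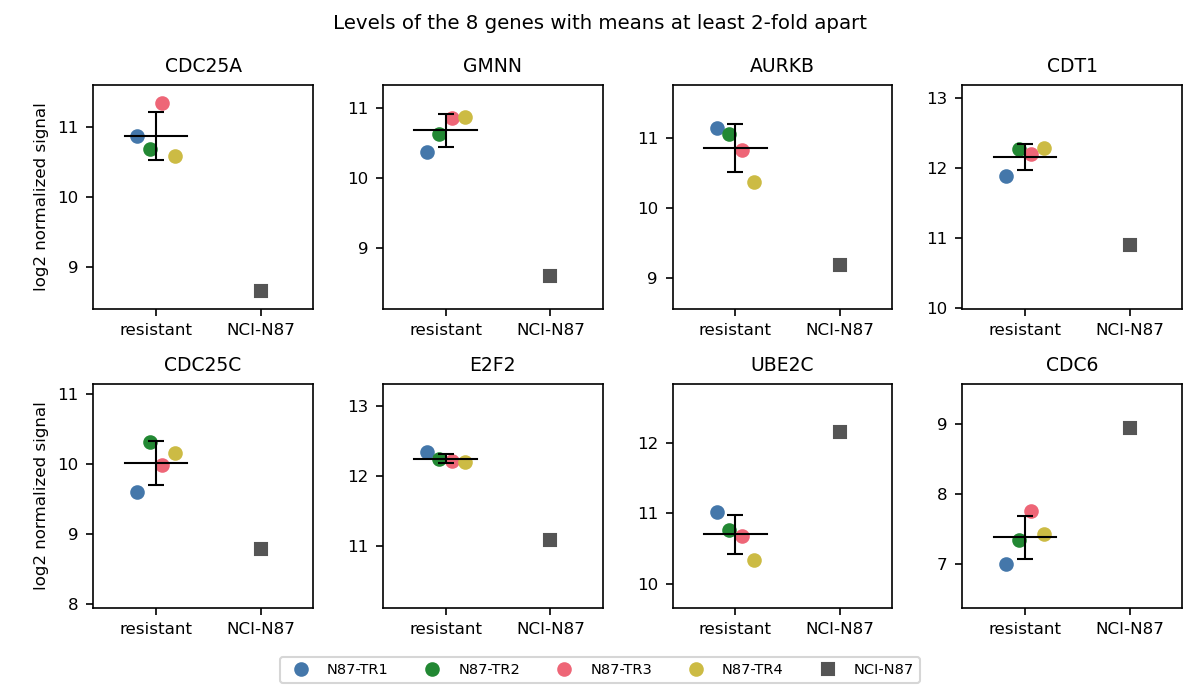
Log2 normalised signal of the 8 genes whose resistant mean differed at least 2-fold from NCI-N87, 1 point per array, with the resistant lines left of NCI-N87. GMNN, CDC25A, AURKB, CDC25C, CDT1 and E2F2 lie above NCI-N87 in all 4 resistant lines, and CDC6 and UBE2C lie below it in all 4.

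No centromere, kinetochore or spindle motor gene passed, and their differences ran between -0.48 and 0.77. CENPF, a kinetochore protein, was the most even of the 45 genes across the resistant lines, at 11.04 ± 0.05 (SD, n = 4) in the resistant lines and 10.54 in NCI-N87. CENPE, the kinetochore kinesin, was nearly as even, at 11.16 ± 0.06 (SD, n = 4) in the resistant lines and 10.92 in NCI-N87. Both lay above NCI-N87 in all 4 lines, but the fitted errors of about 0.28 left them short of the threshold (adjusted p = 0.257 for CENPF and 0.588 for CENPE).

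SKA1, which couples kinetochores to microtubules, differed by 0.77 (adjusted p = 0.231), and CENPA, the centromeric histone, by -0.14. The kinesins KIF11 (spindle bipolarity), KIF20A and KIF23 (both of cytokinesis) differed by -0.03, 0.40 and -0.48. For KIF23 a second probe went the other way, by 1.31, as did other probes of CDK2, MCM7 and MAD2L1, which makes 4 of the 18 genes with several detected probes. N87-TR3 was far the lowest line by these CDK2 and MCM7 probes. The CDK2 probe read 9.63, 9.89, 6.66 and 9.58 in N87-TR1 to N87-TR4, against 9.38 in NCI-N87. In the same order the MCM7 probe read 9.89, 10.71, 7.86 and 10.69, against 10.03 in NCI-N87. MKI67, the Ki-67 antigen of cycling cells, read 7.55, 7.47, 7.89 and 7.22 in N87-TR1 to N87-TR4, against 8.30 in NCI-N87, below it in every line without passing (-0.76 ± 0.35, adjusted p = 0.166).

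**Figure D3:**
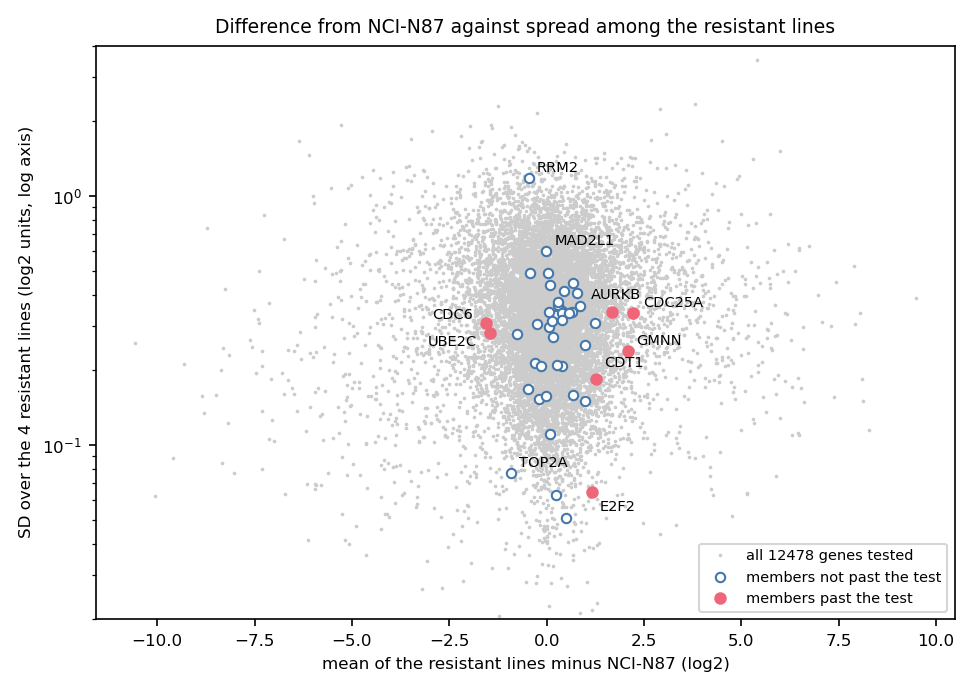
The SD over the 4 resistant lines (vertical axis, log2) is plotted against the resistant minus sensitive difference (horizontal axis, log2) for the 45 genes. GMNN and CDC25A lie farthest right at ordinary spread, while RRM2 lies near a difference of -0.47 with the largest SD, 1.17.

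The spread of the list among the resistant lines was like that of all genes, with a median SD of 0.31 over the list and 0.33 over all genes. CENPF, CENPE, E2F2 and TOP2A were in the lowest 5% of all genes by SD, and RRM2 was in the highest 5%. Each resistant line was also set singly against NCI-N87, 1 array against another, and these differences were not tested. The median difference over the list was 0.15 for N87-TR1, 0.33 for N87-TR2, 0.22 for N87-TR3 and 0.38 for N87-TR4. In N87-TR1 6 genes were at least 2-fold higher and 2 lower than in NCI-N87, and the counts were 8 and 2 for N87-TR2, 10 and 4 for N87-TR3, and 7 and 3 for N87-TR4. In total 17.8%, 22.2%, 31.1% and 22.2% of the list were at least 2-fold apart in N87-TR1 to N87-TR4, a smaller share in each line than the 36.3%, 35.2%, 39.9% and 34.8% of all genes. Over all genes the share at least 2-fold higher was 19.2%, 18.7%, 22.2% and 18.4% in N87-TR1 to N87-TR4, and the share lower was 17.1%, 16.5%, 17.6% and 16.3%.

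Against the mean of the other 3 resistant lines, 1 gene of the list was called in N87-TR3 and 0 in N87-TR1, N87-TR2 and N87-TR4 by limma, where 0.954% of all genes were called in N87-TR3 and 0% in each of the other lines. At an unadjusted p under 0.05 the list held 5 genes in N87-TR3 and 0 in each other line, and all genes 515 for N87-TR1, 325 for N87-TR2, 2355 for N87-TR3 and 176 for N87-TR4. The gene called was RRM2, which was lower in N87-TR3 than in the other 3 lines by a log2 difference of -2.32 ± 0.30 (adjusted p = 0.0371). This call was lost without N87-TR1 (0.063) or N87-TR4 (0.235). MAD2L1 differed by -1.20 ± 0.26 (adjusted p = 0.0935) and CCNA2 by -0.92 ± 0.29 (adjusted p = 0.182).

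Probes of the same gene disagreed more in N87-TR3 than in the other lines. In the 18 genes of the list with several probes above background, the brightest probe, used in the tests, gave a median of 0.06 for N87-TR3 minus the other resistant lines. The 20 other detected probes of the same 18 genes gave a median of -0.90, and 9 of them (45%) were at least 2-fold lower in N87-TR3, against 1 of 18 brightest probes. Detection here means on at least 1 array. Of these 9, the probes of CDC25A, CDK2 and PCNA and 1 of MCM7 were not above background in N87-TR3 itself. Over all 3395 genes with several probes detected in this way, 18.8% of the other probes and 7.98% of the brightest probes were at least 2-fold lower in N87-TR3. In N87-TR1, N87-TR2 and N87-TR4, 0 of the 20 other probes were at least 2-fold lower, and over all genes 2.35%, 1.39% and 0.906%. At least 2-fold higher were 0, 3 (15%) and 2 (10%) of the 20 in these lines, and over all genes 3.11%, 4.55% and 4.88%. Of the 18 brightest probes, 0 were that much higher. Since each line is set against the other 3, a low N87-TR3 value raises the differences of the other lines.

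The widest gaps were in CDK2, where the second probe gave -3.04 for N87-TR3 against -0.62 for the brightest, in MCM7, with -2.57 and -2.48 against 0.14, and in PCNA, with -1.85 against -0.48. The second probes of CDK2 and PCNA and 1 of the MCM7 probes were not above background in N87-TR3, so their gaps have no exact size. MAD2L1 went the other way, with 0.13 by its second probe against -1.20 by the brightest, and RRM2 has a single probe. The low RRM2 and MAD2L1 values in N87-TR3 each rest on 1 probe in the line where probes of a gene disagree most. RNA quality and probe position were not measured in the files used, and their part in these values was not tested.

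**Figure D4:**
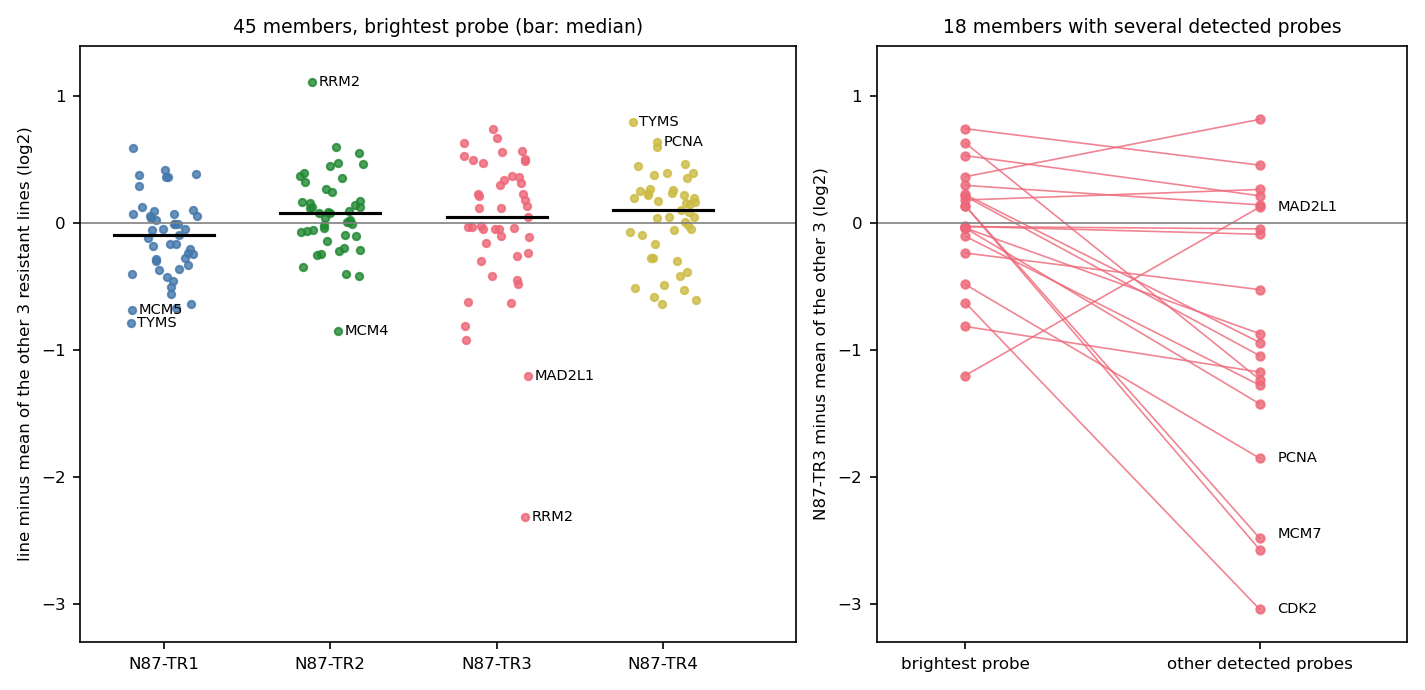
Left, the log2 difference of each resistant line from the mean of the other 3 for the 45 genes by their brightest probe, with RRM2 at -2.32 in N87-TR3. Right, the same difference for N87-TR3 by the brightest probe and by the other detected probes of 18 genes, joined by lines, with CDK2, MCM7 and PCNA far lower by the other probes.

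N87-TR1 was the lowest of the 4 resistant lines in 7 of 9 licensing genes and in 15 of all 45 (33.3%, against 26.1% of all genes), and the highest in 5 (11.1%, against 21.3%). N87-TR2 was the highest in 11 (24.4%, against 19.5%) and the lowest in 5 (11.1%, against 23.6%). N87-TR4 lay above the mean of the other 3 lines in all 9 licensing genes and all 5 genes of DNA synthesis, and below it in 6 of 7 centromere, kinetochore and motor genes. It lay above that mean in 28 of the 45 genes, and in 6024 of all 12478. Over the whole list N87-TR4 was the highest in 12 (26.7%, against 20.4%) and the lowest in 12 (against 24.4%). N87-TR3 was the highest line in 17 genes (37.8%, against 38.7% of all genes) and the lowest in 13 (28.9%, against 25.8%). None of these counts was tested.

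Several of the genes that moved lie among neighbours with differences in the same direction. For the 5 nearest tested protein-coding genes on each side, the neighbours of AURKB had a median log2 difference of 1.51, with 10 of 10 higher in the resistant lines and 6 past the test. Only 0.632% of 11547 genes had a neighbour median as high. The 10 neighbours of E2F2 were also all higher, with a median of 0.98, 2 of them past the test, and 4.61% of genes had a median as high. Around GMNN the median was 0.03, and around CDC25A it was 0.58. The neighbours of CDT1 (-0.45) and UBE2C (-0.36) included 0 genes past the test by limma.

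CDC6 and TOP2A lie near ERBB2 on chromosome 17. CDC6 starts 0.5998 Mb and TOP2A 0.7004 Mb from the start of ERBB2. Among the 13 tested genes between ERBB2 and CDC6, the median difference was -0.98. The largest decreases stood toward the ends, in MIEN1 (-3.97) and GRB7 (-7.04) next to ERBB2, and RAPGEFL1 (-3.89) near CDC6. In the genes between GRB7 and RAPGEFL1, differences ran from -1.62 for ORMDL3 to 0.32 for IKZF3. The 43 tested genes from TOP2A to 3 Mb beyond ERBB2 had a median of -0.46, with differences from -10.56 to 2.58. RARA, a retinoic acid receptor between CDC6 and TOP2A, fell by 2.01 on the log2 scale (adjusted p = 0.00618). Of the 10 neighbours of CDC6, 9 were lower in the resistant lines and 4 fell, with a median of -1.04, and 2.37% of genes had a median as low. Of the 10 neighbours of TOP2A, 9 were lower and 6 fell, with a median of -1.43, and 0.779% of genes had a median as low. The neighbour sets of CDC6 and TOP2A share members. DNA copy number was not measured, and its part in these levels was not tested.

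**Figure D5:**
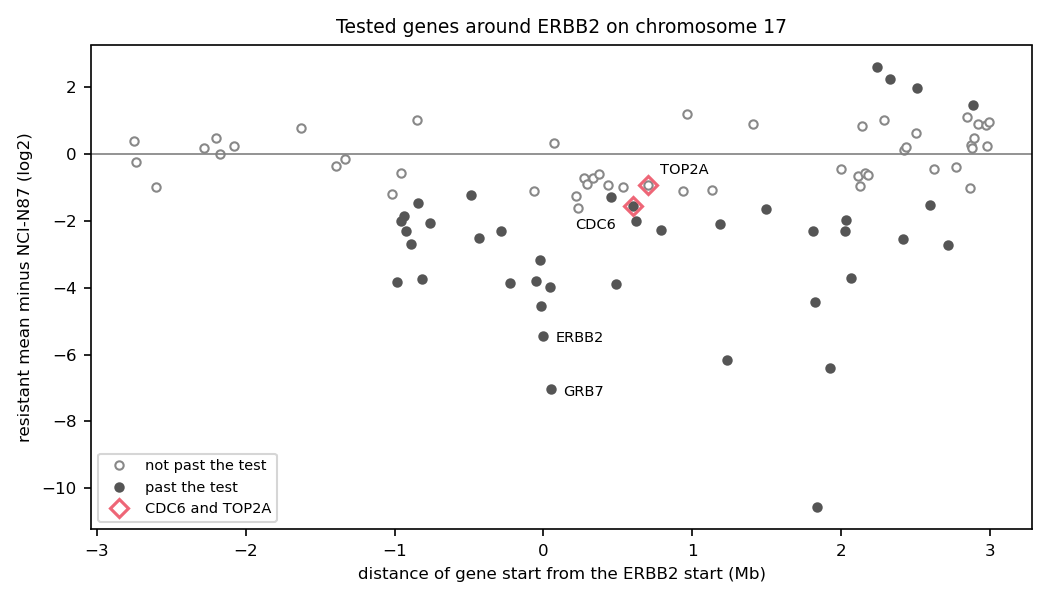
Log2 difference, resistant minus sensitive, of tested genes plotted by the distance of their start from that of ERBB2 on chromosome 17, in Mb. ERBB2 lies at -5.45, and CDC6 at -1.56 and TOP2A at -0.92 lie beyond the stretch of 13 genes whose median is -0.98.

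Other genes of replication and mitosis, outside the 46, were counted the same way. Of 153 such genes 149 were tested, 9 rose and 0 fell by limma (6.04%, against 23.1% of all genes), with 31 at an unadjusted p under 0.05 and a median difference of 0.28. The count was 5 without N87-TR4 and 18 without N87-TR3. CHAF1B, a subunit of the chromatin assembly factor that follows the fork, read 11.14, 11.34, 11.68 and 11.47 in N87-TR1 to N87-TR4, against 8.96 in NCI-N87, a log2 difference of 2.45 ± 0.32 (adjusted p = 0.0024). It was the largest of the 9 rises, well outside the spread of the resistant lines. RPA2, of the complex that coats single-stranded DNA, rose by 1.95 ± 0.36 (adjusted p = 0.00962). SMC1A, a cohesin subunit, had no signal above background in NCI-N87 and entered the test through the resistant lines alone. Its call sets those lines against a background reading, and its resistant mean was at least 2.25-fold higher.

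The other rises were in the fork protector TIPIN (1.47), the helicase activator MCM10 (1.05), WEE1, the kinase that opposes the CDC25 phosphatases (1.46), the centromere proteins CENPW (1.49) and CENPH (1.33), and the condensin subunit NCAPG2 (1.41), with adjusted p-values of 0.0136 to 0.0485. The lowest fitted difference was that of RB1, the retinoblastoma protein that restrains E2F factors. RB1 read 7.46, 7.41, 5.39 and 8.19 in N87-TR1 to N87-TR4, against 9.39 in NCI-N87, and was not above background in N87-TR3. All 4 lines lay below NCI-N87 without passing the test (-2.28 ± 0.94, adjusted p = 0.132), and the N87-TR3 value holds only an upper limit, so this mean is uncertain. TPX2, a spindle assembly factor, differed by -1.15 (adjusted p = 0.186) and TFDP1, a partner of E2F factors, by -0.99 (adjusted p = 0.147).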

How the data were processed

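Expression was measured in 5 gastric cancer cell lines on Illumina BeadChips, 1 array per line, grouped by the trastuzumab sensitivity in the labels. The authors deposited a table of linear signal intensity for 47318 probes, not normalized, with a detection p-value beside each deposited intensity, which sets the probe against negative controls. The submitters' processing notes name GenomeStudio with no version. A second deposited table of the authors' processed intensity has a median of 146.3 on every array. For its method, nothing is given in the sources used here. That table was used as an alternative.

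Probes were named by the platform annotation, updated through RefSeq GRCh38.p14 (30072 of 30111 probes with 1 symbol matched). With limma 3.58.1 in R 4.3.3, neqc subtracted background (offset 16), normalized by quantiles and took log2 values. A gene needed a probe with detection p under 0.01 on at least 1 array, and its brightest such probe was used, which left 12478 genes. Groups were compared with lmFit and eBayes, two-sided, with Benjamini-Hochberg adjustment over all genes and a threshold of 0.05. The fit has 3 residual and 3.83 prior degrees of freedom, and 2 residual ones for a line against the other 3. SDs are over the resistant lines and SEs come from the fit. Arrays give no read depth, so their number limits the precision. The procedure was tested on simulated data.

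The members and lists were chosen with earlier results of these data known. Full values are given for members past a test, at least 2-fold apart or among the 5 with the largest SD, and for the called and the 3 most different genes of the wider list in each direction. Members given with values on every array beyond this rule, and the neighbour, motif and probe descriptions, were chosen after the data were seen. Alternatives tried were leaving out background correction, a larger offset (50), cyclic loess, 75th percentile scaling, the authors' values, testing undetected genes too, asking for detection on all 5 arrays, averaging probes, thresholds of 0.01 and 0.10, an intensity trend, and leaving out each resistant line.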

Additional observations from a re-analysis of the deposited data

Results flagged for a closer look

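In 5 of the 45 genes and in 2 of the 12 genes of the wider list that were examined, 1 resistant line lay far from the other 3, by Dixon's criterion. Chance gives about 1 such case in 20 groups, and 57 were examined. RRM2 read 8.29 in N87-TR3, where the nearest other resistant line read 10.47. MAD2L1 read 10.27 in N87-TR3, nearest 11.44. PLK1 was high in N87-TR3, at 9.59, nearest 8.96. In the wider list NCAPG2 read 10.36 in N87-TR3, nearest 11.09, and TPX2 read 9.66, nearest 10.91. MCM5 was low in N87-TR1, at 10.41, nearest 11.04. TOP2A was highest in N87-TR4, at 12.82, nearest 12.67, in a gene whose resistant lines differ little. N87-TR3 is the line in 5 of these 7 cases. Over all genes N87-TR3 was the highest resistant line in 38.7% and the lowest in 25.8%. Dixon's criterion was not applied to all genes.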

How the results depend on the processing

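GMNN and CDC25A passed the test under all 15 alternatives, with adjusted p-values of up to 0.018 and 0.0226. The genes called in the main setting kept their direction under all of them. CDT1 and E2F2, both higher, were no longer called after cyclic loess or 75th percentile scaling. TOP2A, which was lower, was called after cyclic loess, so the balance of higher and lower calls depended on the normalization. The count of 7 became 11 without background correction, with the authors' values, at a threshold of 0.10 and with an intensity trend, 2 at a threshold of 0.01, and 2 to 11 when a resistant line was left out. The wider list's count of 9 became 18 without background correction, 14 with an offset of 50, 16 with the authors' values, 2 at 0.01, 21 at 0.10, 19 with a trend, and 5 to 18 with a line left out. For all genes it was 1462 with detection on all 5 arrays and 1379 at 0.01. The median difference of the list became 0.14 after cyclic loess, where the median of all genes was -0.04, so relative to all genes it stayed higher. For N87-TR3 against the other resistant lines the count of 1 became 2 without background correction, with the authors' values, at 0.10 and with a trend, 0 without the detection filter, with the mean of probes and at 0.01, and 0 to 1 with a line left out. Signs turned only where no call was made: TYMS to -0.15 after loess, and to -0.17 to 0.22 with a line left out (-0.00 without N87-TR3), MAD2L1 to 0.013 after 75th percentile scaling, 0.038 with the mean of probes and -0.13 to 0.29 with a line left out, and RRM2 to -0.74 to 0.11 with a line left out (0.11 without N87-TR3). The causes were not tested. No paired analysis was possible because NCI-N87 has a single array, so the groups share fewer than 2 replicate numbers. Probes dim relative to background limit what can be read of CCNE2 and of other probes of CDC25A, UBE2C, CDK2, PCNA and MCM7.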
